A study of Mus musculus with 17 samples.

Results

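Annexins are cytosolic proteins that bind membranes rich in acidic phospholipids when calcium rises, through a conserved core, while their N termini differ and decide which partners they bind. They take part in membrane repair, vesicle traffic and the control of inflammation, and several are abundant in neutrophils and monocytes. The 8 annexin genes followed here, Anxa1, Anxa2, Anxa3, Anxa4, Anxa5, Anxa6, Anxa7 and Anxa11, are a named subset of the family, taken from 19938 genes measured by features that carry a single gene symbol. No measured value enters the rule that lists them, and the other 4 annexin genes measured are described apart from them. All 8 were found, and each was read from its feature with the highest mean. Anxa6 had 2 such features and the other members had 1 each.

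RNA of splenic myeloid cells was hybridised to 17 arrays (Affymetrix Mouse Gene 1.0 ST), with the aim of following myeloid-derived suppressor cells while a tumour grows. All mice were female BALB/c, spleens were pooled, and CD11b+ cells were enriched on magnetic columns and then sorted into 2 subsets: monocytic cells (Mo, Ly-6C high and Ly-6G low) and polymorphonuclear cells (PMN, Ly-6C low and Ly-6G high). Mo arrays comprised 3 from mice injected subcutaneously 6 weeks earlier with 100000 Her-2/CT26 cells, a colon carcinoma line carrying Her-2, 3 from mice injected 3 weeks earlier, and 3 from naive mice with no tumour. PMN arrays comprised 2 at 6 weeks, 2 at 3 weeks and 4 from naive mice. The labels do not say whether replicate arrays came from separate pools, so p-values reflect variation among arrays that may be technical in part, and the small number of arrays limits precision. Levels are log2 of the deposited intensities, given as mean ± SD over arrays, and changes are differences of group means on the log2 scale ± SE from limma, with p-values adjusted over all 19938 genes of a comparison and called below 0.05. The subsets appear to have been normalized apart, so levels of Mo and PMN cells are given side by side and were not tested against each other.

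The gates were borne out by transcripts of their defining markers. Ly6g had a mean of 6.07 in naive Mo arrays and 10.52 in naive PMN arrays, and the monocyte chemokine receptor gene Ccr2 had 12.21 in naive Mo and 6.24 in naive PMN arrays. At 6 weeks, Ly6g stood at 6.56, 8.95 and 6.43 in Mo replicates 1, 2 and 3, so replicate 2 lay apart from the other Mo arrays. Along the first principal component of the Mo arrays, replicate 1 at 3 weeks fell among the naive arrays. The upper quartile of intensity was 264 on that array, 284 and 292 on the other 3-week Mo arrays, 278 to 298 at 6 weeks and 254 to 266 in naive Mo arrays, and it was 197 to 202 at 6 weeks and 183 to 187 on the other PMN arrays.

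Each member lies on a chromosome of its own (RefSeq, GRCm38.p6), except Anxa7 and Anxa11, which share chromosome 14. Anxa1 is at chr19:20373434-20390671 and Anxa2 at chr9:69453683-69491792, Anxa3 at chr5:96793385-96845968 and Anxa4 at chr6:86736840-86793634, Anxa5 at chr3:36448923-36475887 and Anxa6 at chr11:54978953-55033471, and Anxa7 at chr14:20455261-20480133 and Anxa11 at chr14:25842127-25886804. RefSeq promoter windows on that build were found for 6 members, all except Anxa3 and Anxa6. The 250 bases before the start of Anxa1 and Anxa2, which rose in both subsets at 6 weeks, and of Anxa5, which changed in PMN cells, are shown as members with unlike responses. They are written in the direction of transcription, from chr19:20390672-20390921 (minus strand), chr9:69453433-69453682 (plus strand) and chr3:36475888-36476137 (minus strand). Capitals mark matches on either strand to TATAAA (the TATA box), TGANTCA (the AP-1 site), GGGCGG (the GC box) or GAGGAAGT (a PU.1-type site).
Anxa1: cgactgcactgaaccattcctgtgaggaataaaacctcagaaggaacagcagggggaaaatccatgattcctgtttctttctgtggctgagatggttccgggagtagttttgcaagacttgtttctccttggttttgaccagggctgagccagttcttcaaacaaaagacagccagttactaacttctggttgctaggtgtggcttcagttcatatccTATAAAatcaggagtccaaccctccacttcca
Anxa2: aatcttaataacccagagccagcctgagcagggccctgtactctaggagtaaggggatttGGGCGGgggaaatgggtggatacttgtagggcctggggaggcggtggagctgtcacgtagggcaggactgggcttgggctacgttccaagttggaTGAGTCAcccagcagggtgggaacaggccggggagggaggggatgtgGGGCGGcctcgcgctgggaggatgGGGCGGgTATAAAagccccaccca
Anxa5: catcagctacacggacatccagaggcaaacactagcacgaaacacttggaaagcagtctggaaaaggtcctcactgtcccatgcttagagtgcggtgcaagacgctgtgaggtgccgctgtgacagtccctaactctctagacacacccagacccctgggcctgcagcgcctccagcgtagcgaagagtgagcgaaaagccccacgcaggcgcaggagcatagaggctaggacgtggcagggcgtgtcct
TATAAA lay 32 bases before the start of Anxa1 and 17 bases before that of Anxa2, and 12.4% of all RefSeq promoter windows of this length hold it. TGANTCA occurred 95 bases before the start of Anxa2, against 6.75% of all windows, and GGGCGG occurred at 3 places in Anxa2 and also in Anxa7 and Anxa11, against 32.7% of all windows. The windows of Anxa4 and Anxa5 held none of the 4 motifs, and GAGGAAGT, held by 2.44% of all windows, occurred in 0 of the 6 members. No searched match overlapped another in the windows shown. These matches describe letters in a window and were not set against the expression values by a test.

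In PMN cells at 6 weeks, all 8 annexins passed the test against naive PMN cells: 7 were higher and Anxa6 was lower. The largest change was that of Anxa3, an annexin known from neutrophils, whose level was 8.12-fold higher. Anxa5, Anxa11 and Anxa7 were 3.65-fold, 3.09-fold and 2.88-fold higher, Anxa1 and Anxa2 were 2.16-fold and 2.03-fold higher, and Anxa4 was 1.41-fold higher. Anxa6 was 1.60-fold lower. Of all genes, 65.4% passed in this comparison, 25.5% higher and 40% lower, so a called annexin is not unusual here. The 6-week arrays did not overlap the naive arrays for any member, which also held for 28.8% of all genes in the higher direction and 51.4% in the lower. The median change of the 8 members was 1.32, beside -0.18 over all genes. In these bulk samples, fewer cells of a type and less RNA per cell cannot be told apart.

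**Figure D1:**
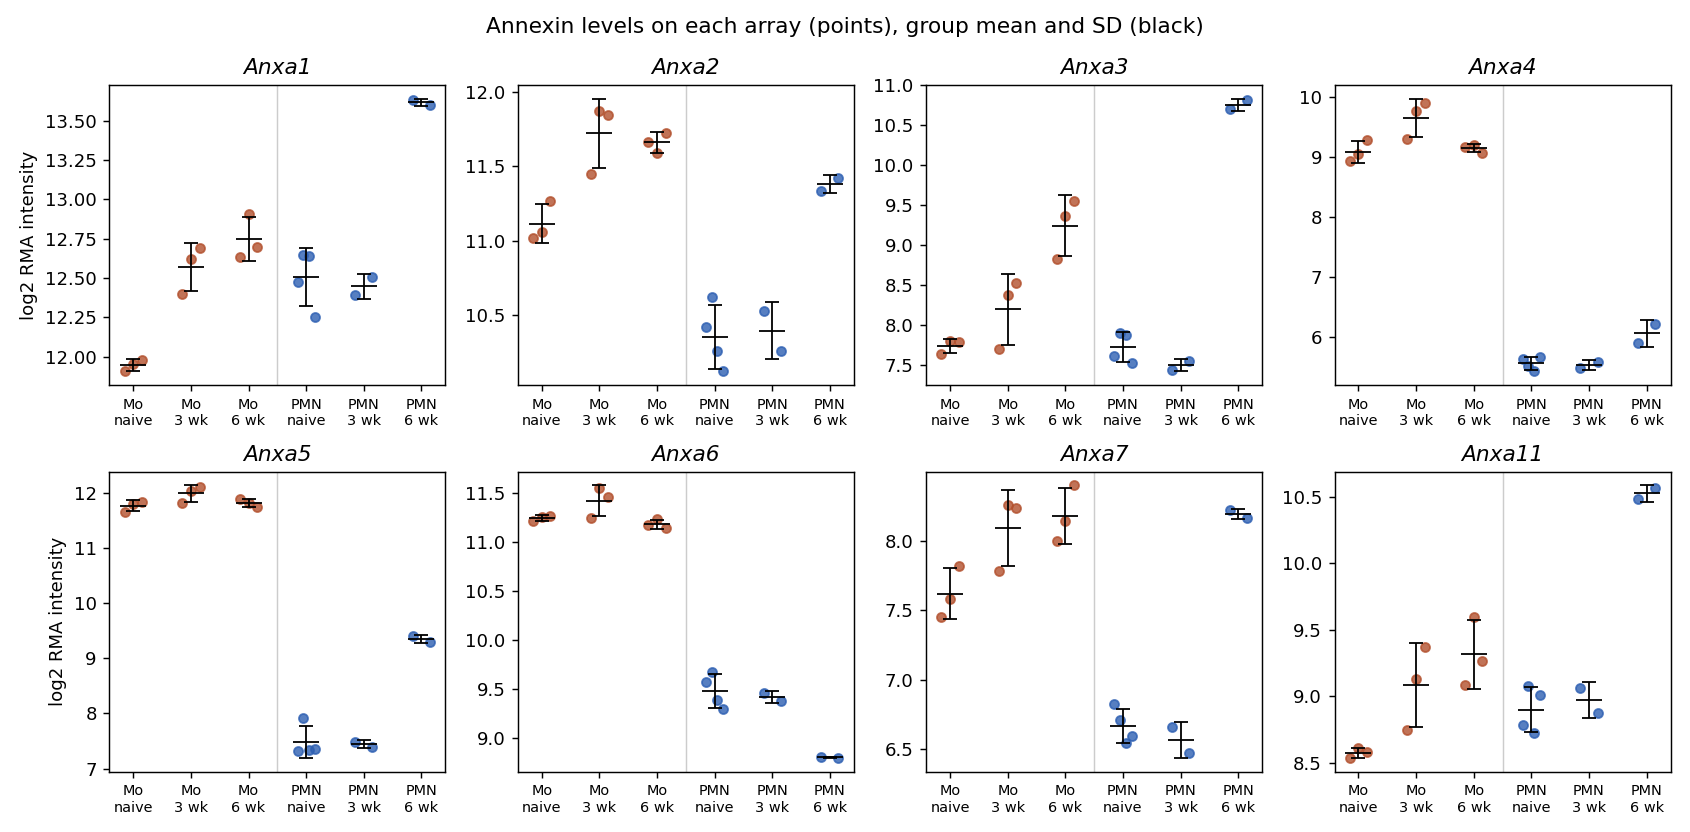
Log2 RMA intensity (vertical axis, its own scale in each panel) of the 8 annexin genes on all 17 arrays. Points are single arrays, red for Mo and blue for PMN, at naive, 3-week and 6-week stages, and black bars are the group mean and SD. In the PMN columns the 6-week arrays stand above the naive and 3-week arrays for 7 genes and below them for Anxa6.

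Anxa3 had levels of 10.70 and 10.81 in PMN cells at 6 weeks, against 7.62, 7.91, 7.88 and 7.53 in naive PMN cells. The change was 3.02 ± 0.20 with an adjusted p of 1.57e-08. Both 6-week arrays exceeded every naive array, and without any single PMN array the change lay between 2.95 and 3.08. In human neutrophils the protein is associated with granule membranes.

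Anxa1, which encodes an anti-inflammatory protein that acts through formyl peptide receptors and is raised by glucocorticoids, had levels of 13.63 and 13.60 at 6 weeks, against 12.48, 12.65, 12.64 and 12.25 in naive PMN cells. Its change was 1.11 ± 0.12 (adjusted p = 1.12e-06). Anxa2, whose protein forms a heterotetramer with S100a10 and binds plasminogen and its activator at the cell surface, had 11.34 and 11.42 at 6 weeks and 10.42, 10.62, 10.26 and 10.12 in naive PMN cells, a change of 1.02 ± 0.14 (adjusted p = 1.71e-05). For both genes every 6-week array lay above every naive array.

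Anxa5 encodes the annexin that binds exposed phosphatidylserine and is used as a label of dying cells. Its levels were 9.40 and 9.29 at 6 weeks, against 7.31, 7.91, 7.33 and 7.36 in naive PMN cells, and the change was 1.87 ± 0.14 (adjusted p = 4.25e-08). Naive replicate 2 stood above the other naive arrays, and without it the change was 2.01. Anxa4, an annexin best known from epithelia, had 5.90 and 6.22 at 6 weeks, against 5.64, 5.51, 5.43 and 5.67 in naive PMN cells. These are dim values: 1194 genes of olfactory and vomeronasal receptors, not known to be used by blood cells, had a median of 5.30 and a 95th percentile of 7.06 in PMN arrays. The Anxa4 change of 0.50 ± 0.15 (adjusted p = 0.00772) fell to 0.34 (adjusted p = 0.139) without replicate 2 at 6 weeks, and to 0.11 (adjusted p = 0.648) with log2 values under 6 raised to 6.

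Anxa7 and Anxa11 have long N termini and both bind the calcium sensor encoded by Pdcd6. Anxa7 had 8.22 and 8.17 at 6 weeks, against 6.82, 6.71, 6.55 and 6.59 in naive PMN cells, and its change was 1.53 ± 0.15 (adjusted p = 3.87e-07). Its naive values also lay under the 95th percentile of the receptor genes, while its 6-week values lay above it. Anxa11 had 10.48 and 10.57 at 6 weeks, against 8.79, 9.08, 8.73 and 9.01 in naive PMN cells, a change of 1.63 ± 0.16 with an adjusted p of 4.34e-07. The groups did not overlap for either gene.

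Anxa6 encodes the largest annexin, with a doubled core, which binds late endosomes and cholesterol-rich membranes. Its levels were 8.80 and 8.79 at 6 weeks, against 9.57, 9.67, 9.38 and 9.29 in naive PMN cells, and it fell by 0.68 ± 0.11 on the log2 scale (adjusted p = 7.23e-05). Both 6-week arrays lay below every naive array. The second feature of Anxa6 also fell in PMN cells, with a change of -0.75 ± 0.16 (adjusted p over features = 0.00207). Centring each array on its median raised every change at 6 weeks by 0.19 in both subsets and every 3-week change in Mo cells by 0.14. With that centring the Anxa6 change in PMN cells was -0.49 (adjusted p = 0.00726).

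Markers of cell cycle and of granulocyte precursors moved with the same 6-week PMN arrays. All 6 measured proliferation genes rose, with summed intensities of 4247 to 5183 at 6 weeks and 684.6 to 750.6 in naive PMN cells, and 5 of 8 granulocyte precursor genes rose, with sums of 35070 to 37210 at 6 weeks and 13270 to 15770 in naive cells. Of the mature neutrophil genes, 7 of 9 rose and 1 fell, and all 6 measured B cell genes fell. Of 8 T and NK cell genes 5 fell and 1 rose, and of 8 dendritic cell genes 4 fell and 1 rose. These counts stand beside 25.5% of all genes higher and 40% lower, and 684 lower and 0 higher of the 1194 receptor genes, so falls of this share are not particular to these markers. Their part in the annexin changes was not tested.

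In Mo cells at 6 weeks, 5 of the 8 annexins rose relative to naive Mo cells and none of the 8 fell, while 46.2% of all genes passed, 21.8% higher and 24.4% lower. Anxa3 was again the member with the largest change, 2.83-fold higher. Anxa1 was 1.74-fold, Anxa11 1.67-fold, Anxa7 1.47-fold and Anxa2 1.46-fold higher. Anxa4, Anxa5 and Anxa6 did not pass. The groups of the 5 called members did not overlap, as for 23.7% of all genes in the higher direction and 31.4% in the lower. The median change of the 8 members was 0.55, beside -0.09 over all genes.

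Anxa3 had levels of 8.82, 9.36 and 9.55 in Mo cells at 6 weeks and 7.65, 7.80 and 7.79 in naive Mo cells. Its change was 1.50 ± 0.19 (adjusted p = 2.94e-05). Anxa1 had 12.64, 12.91 and 12.70 at 6 weeks, against 11.91, 11.95 and 11.98 in naive Mo cells, a change of 0.80 ± 0.11 (adjusted p = 6.84e-05). The 2 groups stood apart for both genes.

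Anxa11 had 9.09, 9.59 and 9.26 at 6 weeks, against 8.53, 8.61 and 8.58 in naive Mo cells, and changed by 0.74 ± 0.15 (adjusted p = 0.00139). Anxa2 had 11.67, 11.59 and 11.72 at 6 weeks, against 11.02, 11.06 and 11.26 in naive Mo cells, a change of 0.54 ± 0.13 (adjusted p = 0.00505). After quantile normalization over all arrays the Anxa2 change was 0.35 (adjusted p = 0.0655). Anxa7 had 8.0, 8.14 and 8.40 at 6 weeks, against 7.46, 7.58 and 7.82 in naive Mo cells, and changed by 0.56 ± 0.14 (adjusted p = 0.00527). Every 6-week array lay above every naive array for these genes as well.

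The remaining 3 members did not pass in Mo cells at 6 weeks. Anxa4 had 9.16, 9.20 and 9.07 at 6 weeks, against 8.93, 9.05 and 9.28 in naive Mo cells, with a 95% interval of the change from -0.23 to 0.35. Anxa5, with 11.88, 11.81 and 11.75 at 6 weeks, against 11.64, 11.79 and 11.83 in naive cells, had an interval from -0.23 to 0.33. Anxa6 had 11.17, 11.23 and 11.14 at 6 weeks, against 11.21, 11.25 and 11.26 in naive cells, and an interval from -0.28 to 0.15. For Anxa6 the features disagreed in Mo cells: the second, dimmer feature changed by -0.50 ± 0.15 (adjusted p over features = 0.0241), while the brighter one changed by -0.06. The mean of both features gave -0.28 (adjusted p = 0.0318), and centring on the array median gave 0.12 for the brighter feature.

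In Mo cells at 6 weeks all 8 genes of granulocyte precursors rose, with summed intensities of 10520, 23900 and 18090 in replicates 1, 2 and 3, against 857.7 to 1366 in naive Mo cells. Mature neutrophil genes rose in 5 of 9 cases and fell in 1, with sums of 5090, 11530 and 6927 at 6 weeks, against 1709 to 2073 in naive cells. All 6 proliferation genes rose, with sums of 6495 to 12660 at 6 weeks and 708.3 to 1587 in naive cells, while 7 of 8 T and NK cell genes, 6 of 8 dendritic cell genes and 5 of 6 B cell genes fell, and 1 dendritic cell gene, Flt3, which progenitors also use, rose by 1.32. Beside these counts, 21.8% of all genes rose and 24.4% fell, and of the 1194 receptor genes 593 fell and 0 rose. Among the dendritic cell genes that fell, Xcr1 and Clec9a had means of 6.01 or less, below the receptor percentile of 6.80 in Mo arrays. Siglech had 6.80 in naive cells, while Itgax, Cd209a and H2-Aa had 8.09, 8.22 and 10.42. The precursor and neutrophil sums were highest in replicate 2, as was Ly6g. Among the annexins that rose, Anxa1 and Anxa11 were also highest in replicate 2, Anxa3, Anxa7 and Anxa2 in replicate 3. The part of these markers in the annexin changes was not tested.

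**Figure D2:**
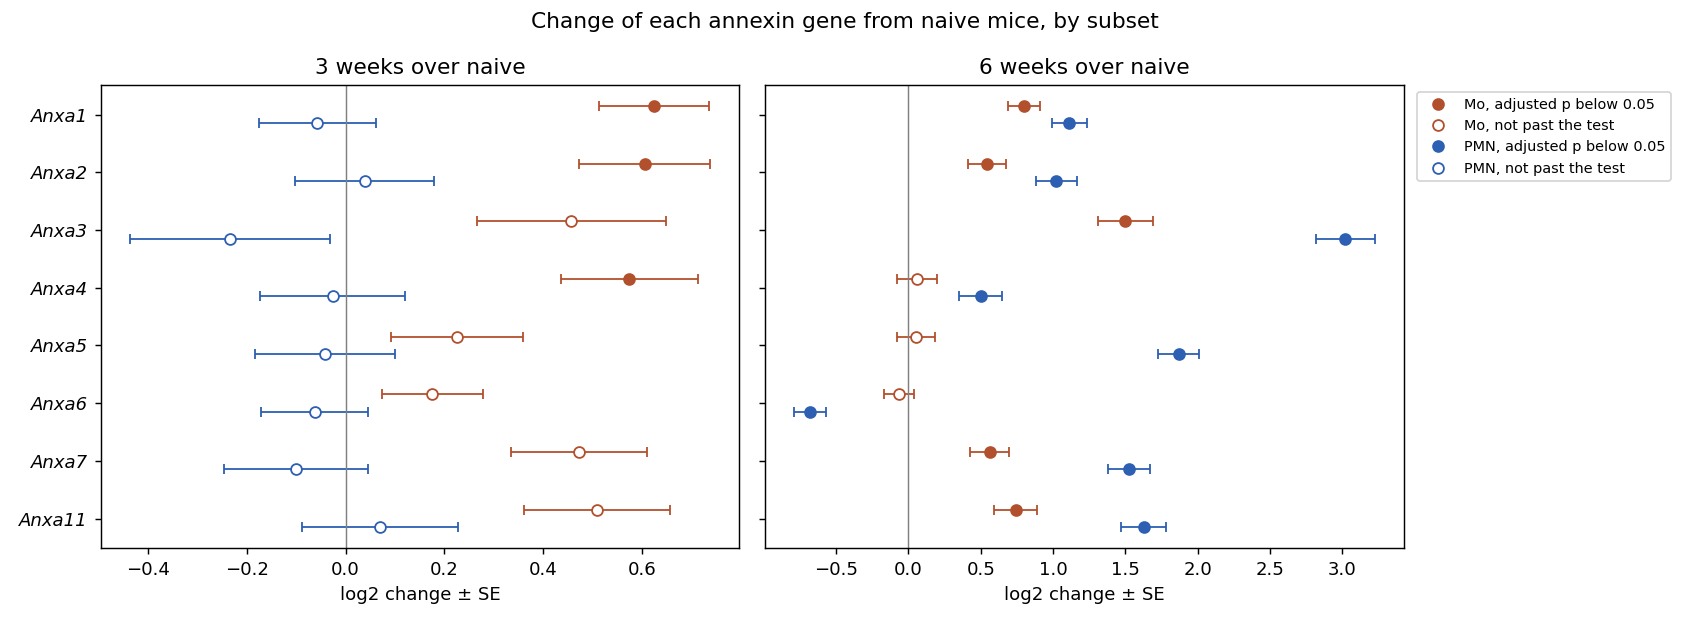
Change of each annexin over naive mice on the log2 scale (horizontal axis, different ranges in the 2 panels) at 3 weeks and at 6 weeks, red for Mo and blue for PMN. Points are limma estimates, bars are SE, and filled points passed at an adjusted p below 0.05. At 6 weeks all 8 PMN points are filled and only that of Anxa6 is below 0, and at 3 weeks only Anxa1, Anxa2 and Anxa4 in Mo cells are filled.

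At 3 weeks after injection, few annexins passed, and the change did not pass a test of the difference between subsets for any of the 8. In Mo cells, Anxa1, Anxa2 and Anxa4 rose by 1.54-fold, 1.52-fold and 1.49-fold, where 6.03% of all genes passed, 5.2% higher and 0.833% lower. In PMN cells 0 of the 8 annexins passed in limma, as did 0% of all genes. At an unadjusted p below 0.05 the PMN comparison held 0 annexins and 374 genes in all. The groups overlapped for all 8 annexins in PMN cells, while 6.17% of all genes had 3-week arrays wholly above and 5.12% wholly below the naive ones. The PMN changes lay between -0.23 for Anxa3, with a 95% interval from -0.66 to 0.19, and 0.07 for Anxa11.

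In Mo cells at 3 weeks, Anxa1 had 12.40, 12.62 and 12.69, against 11.91, 11.95 and 11.98 in naive Mo cells, and changed by 0.62 ± 0.11 (adjusted p = 0.0138). Anxa2 had 11.45, 11.87 and 11.84, against 11.02, 11.06 and 11.26 in naive cells, and changed by 0.61 ± 0.13 (adjusted p = 0.0256). Anxa4 had 9.30, 9.77 and 9.91, against 8.93, 9.05 and 9.28 in naive cells, a change of 0.57 ± 0.14 (adjusted p = 0.0331). In all 3 genes replicate 1 was the lowest 3-week array, yet still above every naive array. The groups of Anxa11 did not overlap either, with 8.75, 9.13 and 9.37 at 3 weeks, against 8.53 to 8.61 in naive cells, and its adjusted p was 0.0514. For comparison, 10.5% of all genes had 3-week arrays wholly above the naive ones and 10.4% wholly below.

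Anxa3 showed the spread of the 3-week Mo arrays most clearly: it had 7.70 in replicate 1 and 8.37 and 8.53 in replicates 2 and 3, against 7.65 to 7.80 in naive cells. Few neutrophil and precursor markers passed at 3 weeks. Of the mature neutrophil genes, 1 of 9 rose (S100a8, by 1.24) and 8 did not pass. Of the granulocyte precursor genes, 2 of 8 rose (Lcn2, by 1.08, and Prtn3, by 0.95) and 6 did not pass. Summed intensities were 2200 to 2759 at 3 weeks and 1709 to 2073 in naive cells for the first list. For the second they were 1300 to 1628 at 3 weeks and 857.7 to 1366 in naive cells. Of 8 macrophage genes 1 fell (Siglec1, by 0.82), and of 8 dendritic cell genes 1 fell (Cd209a, by 0.71). The other 7 of each list did not pass, among them Adgre1 and Itgax, which changed by 0.43 and 0.35. Beside these counts, 5.2% of all genes rose and 0.833% fell. The part of all these markers in the annexin changes was not tested. The 3-week calls depended on single arrays. Without replicate 1 at 3 weeks, 7 annexins passed, and without naive replicate 1, naive replicate 2, 3-week replicate 2 or 3-week replicate 3, 0 passed. The adjusted p of Anxa1 was 0.0928 and 0.0885 without naive replicates 1 and 2, and 0.114 and 0.122 without 3-week replicates 2 and 3. The number of all genes called moved with it, between 16 and 8911 over these settings, beside 1202 with every array. With the Mo arrays fitted alone, 0 annexins passed, with an adjusted p of 0.175 for Anxa1, Anxa2 and Anxa4.

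**Figure D3:**
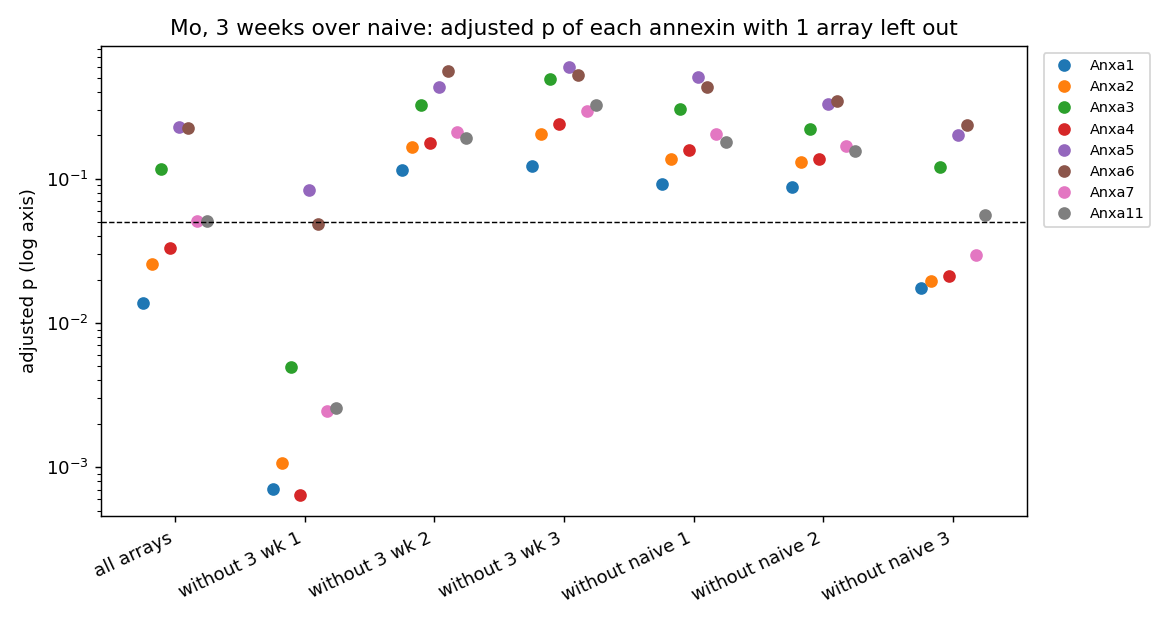
Adjusted p from limma (log axis) of each annexin in Mo cells at 3 weeks over naive, with all arrays and with each Mo array of these groups left out in turn. Each colour is 1 gene and the dashed line marks 0.05. All points lie above the line without 3-week replicate 2, 3-week replicate 3, naive replicate 1 or naive replicate 2, and 7 of 8 lie below it without 3-week replicate 1.

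Between 3 and 6 weeks the annexins of Mo cells split. Anxa3 was a further 2.06-fold higher at 6 weeks than at 3 weeks, a change of 1.04 ± 0.19 (adjusted p = 0.00152). Anxa4 was lower at 6 weeks, with 9.16, 9.20 and 9.07, against 9.30, 9.77 and 9.91 at 3 weeks, and fell by 0.51 ± 0.14 (adjusted p = 0.0281). Those were 1 higher and 1 lower of 8 members, where 7.51% of all genes passed, 4.38% higher and 3.13% lower. The groups did not overlap for Anxa3 in the higher direction, as for 6.47% of all genes, and for Anxa4 and Anxa6 in the lower, as for 6.8%. Anxa2, Anxa5 and Anxa6 had their highest group mean at 3 weeks as well, at 11.72 ± 0.23, 11.98 ± 0.15 and 11.42 ± 0.16 (SD, n = 3). Their changes to 6 weeks of -0.06, -0.17 and -0.24 did not pass (adjusted p = 0.854, 0.548 and 0.216). The Anxa4 call was lost without 3-week replicate 2 (adjusted p = 0.115), 3-week replicate 3 (0.125), 6-week replicate 2 (0.0648) or 6-week replicate 3 (0.120), with median centring (0.158) and with the Mo arrays fitted alone (0.120).

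In PMN cells between 3 and 6 weeks, all 8 annexins passed, 7 higher and Anxa6 lower, where 58.7% of all genes passed, 23.7% higher and 34.9% lower. No member's groups overlapped, as for 30% of all genes in the higher and 55.7% in the lower direction. Anxa3 was 9.55-fold higher at 6 weeks than at 3 weeks, a change of 3.25 ± 0.23 (adjusted p = 5.00e-08), with 7.45 and 7.55 in the 3-week arrays. The 3-week and naive comparisons share the 6-week arrays, so they are not separate evidence. Anxa5 changed by 1.91, Anxa7 by 1.63, Anxa11 by 1.56, Anxa1 by 1.17, Anxa2 by 0.98 and Anxa4 by 0.53, and Anxa6 fell by 0.62. The second feature of Anxa6 changed by -0.45 ± 0.19, which did not pass (adjusted p over features = 0.0646). The Anxa4 call was lost without 3-week replicate 1 (adjusted p = 0.0817), without 6-week replicate 2 (0.152) and with log2 values under 6 raised to 6 (0.736).

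The difference between the 2 subsets in the 6-week change over naive was tested in the same fit. For Anxa3, Anxa5, Anxa7 and Anxa11 the Mo change minus the PMN change was below 0, and for Anxa6 it was above 0, where 17.5% of all genes passed, 6.47% above and 11% below 0. Anxa5 differed most, by -1.81 ± 0.19 (adjusted p = 1.12e-05): its level changed by 0.05 in Mo cells and by 1.87 in PMN cells. Anxa3 differed by -1.52 ± 0.28 (adjusted p = 0.0012), Anxa7 by -0.97 ± 0.20 (adjusted p = 0.00305) and Anxa11 by -0.89 ± 0.22 (adjusted p = 0.0089). Anxa6 differed by 0.62 ± 0.15 (adjusted p = 0.00822). Its second feature differed by 0.26 ± 0.23, which did not pass (adjusted p over features = 0.578), so the Anxa6 difference rests on the brighter feature. Without PMN replicate 2 at 6 weeks the difference for Anxa11 was -0.84 (adjusted p = 0.0508).

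For Anxa1, which rose in both subsets, the difference was -0.31 with a 95% interval from -0.65 to 0.03 (adjusted p = 0.225). Anxa2 and Anxa4 did not pass either, with differences of -0.48 and -0.44 (adjusted p = 0.105 and 0.160), but after quantile normalization over all arrays that of Anxa4 was -0.89 (adjusted p = 0.00199). For the 3-week change over naive, 0 of 8 differences passed in limma, beside 0.00502% of all genes, and the Mo change exceeded the PMN change by 0.24 to 0.69. For the change from 3 to 6 weeks, 7 members differed, all with a Mo change below the PMN change, where 29.2% of all genes passed, 11.9% above and 17.3% below 0. The largest of these differences were -2.21 for Anxa3 and -2.08 for Anxa5, and that of Anxa6 was 0.38 (adjusted p = 0.0831), which became 0.62 (adjusted p = 0.00485) after quantile normalization over all arrays. Anxa4 changed by -0.51 in Mo cells and 0.53 in PMN cells, but neither call held in every setting. With median centring the Mo change was -0.47 (adjusted p = 0.158). With log2 values under 6 raised to 6 the PMN change, in dim values, was 0.11 (adjusted p = 0.736).

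Set side by side without a test, the naive levels divided the family. Anxa5 had 11.76 ± 0.10 (SD, n = 3) in Mo cells and 7.48 ± 0.29 (SD, n = 4) in PMN cells, Anxa4 had 9.09 ± 0.18 in Mo cells and 5.56 ± 0.11 in PMN cells, and Anxa6 had 11.24 ± 0.03 in Mo cells and 9.48 ± 0.17 in PMN cells. For these 3 genes the Mo arrays lay above the PMN arrays at every stage. Of the other members, the naive mean was higher in Mo cells by 0.95 for Anxa7, 0.76 for Anxa2 and 0.01 for Anxa3, and lower by 0.56 for Anxa1 and 0.33 for Anxa11. After quantile normalization over all 17 arrays the Mo minus PMN values were -0.06 for Anxa2 and -0.56 for Anxa3, so 4 of 8 rather than 6 of 8 stood higher in Mo cells. Within a subset, the order of the stages of Anxa3 was naive, 3 and 6 weeks in Mo cells, with means of 7.75 ± 0.09, 8.20 ± 0.44 and 9.25 ± 0.38, where the first step did not pass (adjusted p = 0.117, with a 95% interval from 0.05 to 0.86). In PMN cells it was 7.73 ± 0.19, 7.50 ± 0.08 and 10.76 ± 0.07, where the naive and 3-week levels did not differ beyond their spread.

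Genes whose proteins work with annexins were read from 8 lists with 57 measured genes. At 6 weeks 52.6% of them passed in Mo cells, near the 46.2% of all genes, and 68.4% in PMN cells, near the 65.4% of all genes. The 4 S100 genes that encode annexin partners did not move together. S100a6, a partner of Anxa11, rose by 0.85 ± 0.20 in Mo cells and 1.82 ± 0.21 in PMN cells, and S100a11, a partner of Anxa1, by 0.84 ± 0.10 in Mo and 0.34 ± 0.10 in PMN cells. S100a10, the partner of Anxa2, rose by 0.98 ± 0.17 in Mo cells (adjusted p = 0.000516) and fell by 0.60 ± 0.18 in PMN cells (adjusted p = 0.0095). The difference of its change between the subsets was 1.58 ± 0.25 (adjusted p = 0.000369). S100a4 changed by 0.16 in Mo cells, which did not pass, and by -0.40 in PMN cells. In PMN cells S100a4 was dim, with means of 5.58 at 6 weeks and 5.98 in naive cells, both below the 95th percentile of the receptor genes, and S100a10 had means of 6.84 at 6 weeks, below that percentile, and 7.43 in naive cells, above it. The median change of the receptor genes themselves was -0.33 in Mo and -0.36 in PMN cells.

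The membrane repair list had 6 higher and 4 lower of 13 genes in Mo cells and 7 higher and 3 lower in PMN cells. Ahnak and Myof were among the 4 lower in Mo cells. Their means were 10.25 and 9.70 in naive cells and 9.84 and 9.26 at 6 weeks. The shares of all genes were 21.8% higher and 24.4% lower in Mo cells and 25.5% higher and 40% lower in PMN cells. Sri, which encodes sorcin, a partner of Anxa7, rose by 0.44 in Mo and 1.90 in PMN cells. Pdcd6, which encodes the calcium sensor that binds Anxa7 and Anxa11, rose by 0.37 in Mo and 1.11 in PMN cells. The calpain genes Capn1 and Capns1 rose by 0.52 and 0.54 in Mo cells and by 1.26 and 1.75 in PMN cells.

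Phosphatidylserine, the ligand of Anxa5, is moved across the plasma membrane by scramblases and flippases, of which 5 of 11 rose and 2 fell in Mo cells and 6 rose and 1 fell in PMN cells. Atp11a, a flippase gene, rose by 1.71 in Mo and 1.77 in PMN cells, and the scramblase genes Plscr1 and Ano6 by 0.56 and 0.47 in Mo cells and by 1.65 and 1.46 in PMN cells. The median change of the list was 0.22 in Mo cells, beside -0.09 over all genes, and 0.53 in PMN cells, beside -0.18. At 3 weeks 9 of the 57 related genes rose in Mo cells, 15.8% beside 5.2% of all genes, among them all 4 S100 genes, in the comparison whose calls over all genes ran from 16 to 8911 with 1 array left out. In PMN cells 0 passed, as for 0% of all genes.

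Of the other annexin genes on the array, Anxa8, Anxa9, Anxa10 and Anxa13 had group means of 6.83 or less in every group. Anxa9 rose in Mo cells at 6 weeks by 0.75 ± 0.15 (adjusted p = 0.00117), and Anxa8 fell in PMN cells by 0.58 ± 0.14 (adjusted p = 0.00242). The other 6 changes of these 4 genes at 6 weeks did not pass. All group means lay below the 95th percentile of the receptor genes in the same subset (6.80 in Mo and 7.06 in PMN arrays) except that of Anxa9 in Mo cells at 6 weeks.

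**Figure D4:**
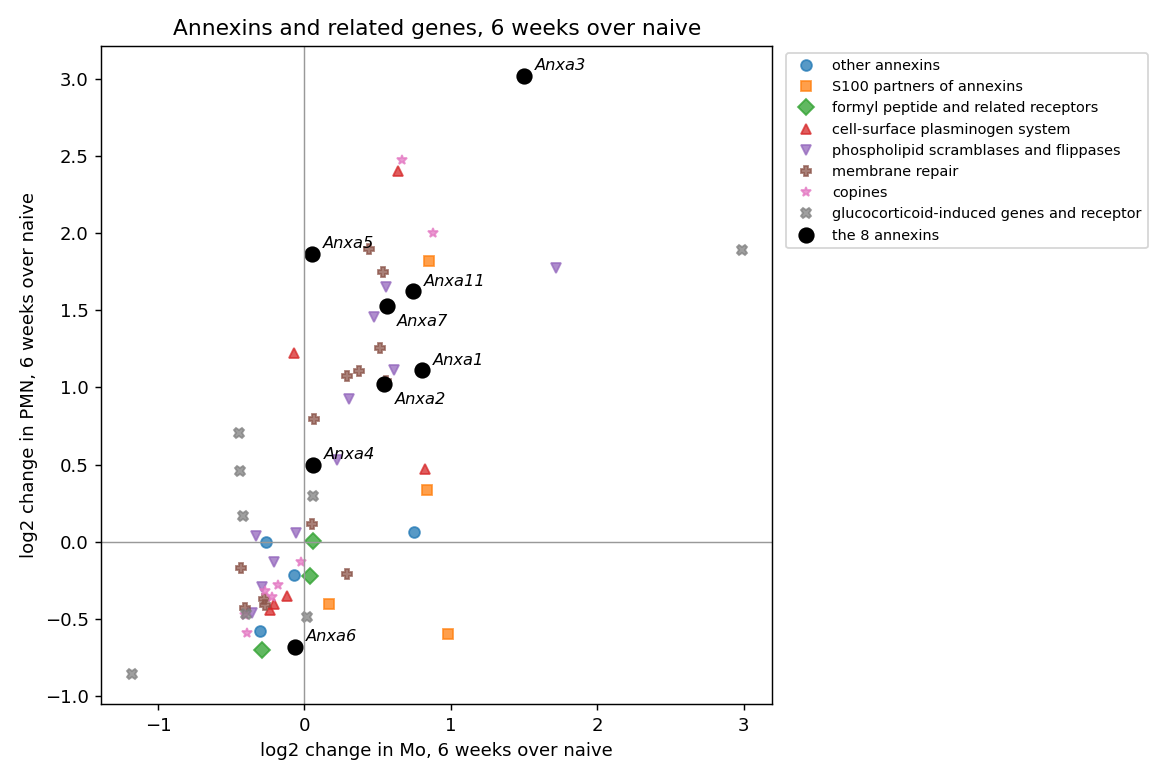
Log2 change at 6 weeks over naive in Mo cells (horizontal axis) and in PMN cells (vertical axis) of the 8 annexins (black, named) and of 57 related genes by list (coloured symbols). Anxa3 lies at 1.50 in Mo and 3.02 in PMN cells, Anxa5 near 0 in Mo cells, and Anxa6 below 0 in PMN cells.

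Genes with the most similar profile were looked up by Pearson correlation within a subset for the 2 members with the widest range of group means. In Mo cells (9 arrays, 8935 genes compared), Anxa3 was most like Snx25, Ckap4 and Pa2g4, with r of 0.995, 0.994 and 0.994, and Anxa1 was most like Ccr1, Flot2 and Gda, with r of 0.983, 0.983 and 0.980. In PMN cells (8 arrays, 7073 genes compared), Anxa3 was most like Ankrd22, Armc8 and Fbxo30, with r of 0.999, 0.998 and 0.998, and Anxa5 was most like Cep350, Itfg1 and Kiz, with r of 0.997 each. These values describe the arrays, which share stage and array-wide scale. In PMN cells they follow the gap between the 2 arrays at 6 weeks and the other 6. Among the members over the 9 Mo arrays, correlations were 0.67 to 0.96 between Anxa1, Anxa2, Anxa3, Anxa7 and Anxa11 and 0.82 to 0.96 between Anxa4, Anxa5 and Anxa6, while those between the 2 sets ran from -0.18 to 0.72.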

How the data were processed

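Gene expression was measured on 17 arrays. The authors made the deposited values with RMA (background subtraction, normalization and probe summary), per the submitters' processing notes, with no version given. The values deposited are linear intensities, so they were put on the log2 scale, where log2 values had been assumed in the plan. Build and aligner of the array annotation are not given in the sources used here. Mo and PMN arrays share few exact values (a median of 146 in pairs across subsets, 942.5 in Mo pairs and 251 in PMN pairs), so they were treated as normalized apart. A table pairing features with genes named 21789 features with 1 symbol. Those with several (1621) or none (12147) were left out, and the highest-mean feature of a gene was used.

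One model with a mean for each of 6 groups was fitted to 17 arrays with limma 3.58.1 in R 4.3.3, with no filter on dim genes. The 6 stage comparisons and 3 differences between subsets were tested two-sided, with Benjamini-Hochberg adjustment over 19938 genes. The script was tested on simulated data. Groups came from the labels. The annexins, the 8 related lists, the 11 marker lists and the tests were chosen with earlier results of these data known. Up to 4 called genes of each related list were named by size of change. Further list members were named after their values were seen (among them S100a4, Ahnak and Myof in Mo cells). Likeness used genes with a mean log2 level of at least 7. Of the 63 related genes listed, 57 were measured, and the others are not analysed here. Alternatives covered scaling, dim values, features, the fit, array weights, replicate numbers and leaving out each array.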

Additional observations from a re-analysis of the deposited data

Results flagged for a closer look

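Anxa5 in naive PMN cells had 1 array apart from the rest. Replicate 2 stood at 7.91 and the others at 7.31 to 7.36, and its gap to the next array was 0.919 of the range of the group, above Dixon's 95% critical value for 4 arrays. The naive PMN arrays are the only group of 4, so no other group was tested in this way. All 8 annexins were checked in this group, and chance alone marks about 1 gene in 20 at each check. A mark on 1 of 8 genes is therefore weaker than that rate for a single gene.

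The 6-week change over naive differed between the subsets for 5 annexins. The Mo change minus the PMN change was -1.52 for Anxa3, -1.81 for Anxa5, -0.97 for Anxa7, -0.89 for Anxa11 and 0.62 for Anxa6. With the second feature of Anxa6 it was 0.26, which did not pass (adjusted p over features = 0.578). Among the S100 genes that encode annexin partners, the same difference was -0.97 for S100a6, 1.58 for S100a10 and 0.50 for S100a11.

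The change between 3 and 6 weeks differed between the subsets for 7 annexins, with the Mo change below the PMN change in each. The differences were -0.99 for Anxa1, -1.05 for Anxa2, -2.21 for Anxa3, -1.04 for Anxa4, -2.08 for Anxa5, -1.54 for Anxa7 and -1.32 for Anxa11. These share the 6-week arrays with the differences over naive.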

How the results depend on the processing

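The 3-week Mo comparison depended most on the processing. In place of 3 annexins, it called 5 with arrays centred on their medians, 1 with values under log2 6 raised to 6, 5 with dim genes left out, 0 with Mo arrays fitted alone, 8 with array weights (whose fit stopped before full convergence) and 0 to 7 with 1 array left out. The change from 3 to 6 weeks in Mo cells called 1 annexin in place of 2 with median centring and with Mo arrays fitted alone, 7 with array weights and 1 to 2 with 1 array left out. The difference between subsets in the 3-week change called 7 in place of 0 with array weights and 0 to 6 with 1 array left out, 6 of them without Mo replicate 1 at 3 weeks. With 1 array left out, the 6-week comparison over naive called 5 annexins in Mo cells and 7 to 8 in PMN cells, and the related genes called in Mo cells numbered 16 to 39 in place of 30, with 18, 19 and 16 without naive replicate 1, naive replicate 2 and 6-week replicate 3. Leaving out 1 of 2 PMN arrays assumes that the lone array varies like those of other groups. With quantile normalization over all arrays, Anxa4 did not pass at 3 weeks in Mo cells (0.42, adjusted p = 0.0808). With the same setting Anxa6 passed between 3 and 6 weeks in Mo cells (-0.34, adjusted p = 0.0327). The cause of these shifts was not tested.

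The labels give no pairing for the replicate numbers that groups share, and not every same-numbered pair of arrays correlated above 0.1. Correlations of deviations between same-numbered arrays ran from -0.09 to 0.63 in Mo cells (7 of 9 pairs over 0.1) and from -0.46 to 0.02 in PMN cells (0 of 6), and 13 of 18 Mo comparisons were highest with their own number. The median was 0.47 for same-numbered and -0.30 for other pairs in Mo cells, and -0.0208 and 0.0175 in PMN cells. Deviations within a group sum to 0, so same-numbered and other pairs are not independent. In groups of 2 arrays they are exact opposites, so each PMN correlation has a mirror of opposite sign. The medians are thus partly fixed by the calculation and do not settle whether arrays were paired. With the replicate number as a block, 6 annexins were called in place of 3 at 3 weeks in Mo cells and 4 in place of 0 for the 3-week difference between subsets, and the difference of Anxa6 between 3 and 6 weeks passed (adjusted p = 0.038).

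Signs turned only where the change passed neither in the main setting nor in the alternative. Anxa6 in Mo cells turned to -0.0164 at 3 weeks with the mean of features and to 0.12 at 6 weeks with median centring. With quantile normalization over all arrays, Anxa4 and Anxa5 in Mo cells at 6 weeks turned to -0.14 and -0.17, and Anxa2 in PMN cells at 3 weeks to -0.0611, as it did to -0.13 with the replicate block. With array weights, Anxa7 turned to -0.0907 between 3 and 6 weeks in Mo cells, and Anxa5 to 0.0079 in PMN cells at 3 weeks. With 1 array left out, the 6-week Mo change ran from -0.0173 to 0.16 for Anxa4 and from -0.0038 to 0.0909 for Anxa5, and the Mo change from 3 to 6 weeks from -0.20 to 0.0124 for Anxa2 and from -0.069 to 0.18 for Anxa7. The 3-week PMN change then ran from -0.14 to 0.0001 for Anxa1, -0.0965 to 0.17 for Anxa2, -0.0826 to 0.0298 for Anxa4, -0.0983 to 0.10 for Anxa5, -0.12 to 0.0019 for Anxa6 and -0.0253 to 0.17 for Anxa11. Anxa4 in PMN cells is dim, at the level of genes not used by blood cells, and its changes are limited by that.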

Other observations

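At 6 weeks 21.8% of all genes rose and 24.4% fell in Mo cells, and 25.5% rose and 40% fell in PMN cells, shares beside which the following counts are to be read. Of the cell-surface plasminogen system, which Anxa2 serves, Plau, the urokinase gene, rose by 0.64 ± 0.18 in Mo cells and 2.40 ± 0.19 in PMN cells. Plgrkt, which encodes a plasminogen receptor, rose by 0.82 in Mo cells, and Plaur, the urokinase receptor gene, by 1.22 in PMN cells. In all, 2 of 6 genes rose and 0 fell in Mo cells, and 2 rose and 3 fell in PMN cells. Those 3 (Plg, Plat and Serpinb2, named after their values were seen) had means between 5.02 and 6.29 in PMN cells, below the 95th percentile of 7.06 of receptor genes not used by blood cells. Copines, another family of calcium-dependent phospholipid-binding proteins, had 2 of 8 genes higher and 2 lower in Mo cells and 2 higher and 5 lower in PMN cells. Cpne3 and Cpne2 were higher in both, by 0.66 and 0.88 in Mo cells and by 2.47 and 2.0 in PMN cells. The 2 lower in Mo cells, Cpne4 and Cpne5, had means of 6.26 or less, below the receptor percentile of 6.80. In PMN cells all copines but Cpne2, Cpne3 and Cpne6 had means of 6.60 or less at every stage, below 7.06. Cpne6 had 7.62 in naive PMN cells and 7.03 at 6 weeks.

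Of 8 genes of the glucocorticoid list, 1 rose and 2 fell in Mo cells, and 2 rose and 2 fell in PMN cells. Fkbp5, a glucocorticoid-induced gene, rose by 2.98 ± 0.15 in Mo cells and 1.89 ± 0.16 in PMN cells, while Dusp1, another such gene, fell by 1.18 in Mo cells and 0.86 in PMN cells. Fpr1, Fpr2 and Fpr3 of the formyl peptide receptor list were not measured. Of its 3 measured genes (Fpr-rs3, Fpr-rs4 and Cmklr1), 0 passed in Mo cells. In PMN cells Fpr-rs3 fell by 0.70, from a mean of 6.79 in naive cells to 6.09 at 6 weeks. Both means lay below 7.06, the dim level set above by genes that blood cells do not use. The median change of those dim genes in PMN cells was -0.36. Among marker lists not named so far, the monocyte list had 3 of 7 genes higher and 3 lower in Mo cells and 1 higher and 2 lower in PMN cells, the macrophage list 0 higher and 2 lower of 8 in each subset, the erythroid list 1 higher of 5 in Mo cells and 1 higher and 1 lower in PMN cells, and the platelet list 4 lower of 6 in Mo cells and 1 higher and 2 lower in PMN cells.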
